A study of Mus musculus with 2 samples.

Results

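The replication-dependent histone genes lie in clusters in the mouse genome and encode the H1, H2A, H2B, H3 and H4 proteins that package newly replicated DNA. The members described here were the rows of the deposited gene table whose identifier maps to a GENCODE M21 symbol starting with Hist1h, Hist2h, Hist3h or Hist4h, with no floor on their level. There were 34 such rows among the 19202 genes of the table. GENCODE M21 lists 70 genes with these symbols, and the other 36 were not analysed here. The members were 5 of the 6 H1 genes listed there, 4 of 20 H2A genes, 9 of 19 H2B genes, 7 of 12 H3 genes and 9 of 13 H4 genes. By cluster they were 27 of 56 Hist1 genes, 3 of 10 Hist2 genes, all 3 Hist3 genes and the 1 Hist4 gene. Sums by class and cluster below cover these members only. The deposited annotation lists the core histone domain of Pfam for 29 of them and the linker histone domain for the 5 H1 genes.

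Canonical histone messages are unusual among animal messenger RNAs in that they end in a short stem-loop instead of a poly(A) tail. The stem-loop binding protein SLBP holds this hairpin, and the U7 small nuclear ribonucleoprotein guides the cut just downstream of it. The messages accumulate when DNA is copied and are degraded when replication stops, so in the embryonic brain they are known as products of dividing progenitors. Some histone genes can also give polyadenylated transcripts that run past the stem-loop. The standard protocol of the library kit named in the labels selects polyadenylated RNA, but the labels do not say whether that selection was made.

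The tissue came from E12 embryos of the C57BL/6 background. The groups were the H2AZcKO genotype, a conditional deletion of the replication-independent histone variant H2A.Z, and the H2AZfl/fl genotype, which carries the floxed allele. The tissue label reads telencephalic tissue while the protocol names the cerebral cortex, and the labels name no Cre driver. The table holds 1 column of read counts per genotype, with 8839840 counts for H2AZcKO and 8891198 counts for H2AZfl/fl. The series text speaks of triplicates, and whether a column pools them is not given. No difference has a replicate check, so no test of genotype was made and every interval below covers counting error only. H2afz, the targeted gene, had 1664 counts in H2AZcKO tissue and 2605 counts in H2AZfl/fl tissue, a ratio of 0.661 (95% counting interval 0.621 to 0.703). Telencephalon markers were detected, among them Emx1, a transcription factor of the dorsal telencephalon, at 135 CPM in H2AZcKO and 117 CPM in H2AZfl/fl tissue, and Dlx2, one of the ventral telencephalon, at 273 CPM in H2AZcKO and 226 CPM in H2AZfl/fl. CPM here is counts scaled to a common library size after trimmed-mean (TMM) normalization over the whole table. In bulk tissue, fewer cells of a type and less RNA per cell cannot be told apart.

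The stem-loop is the sequence feature that defines these messages, so its letters are shown first. The histone 3′ stem-loop consensus of 16 bases was found in the annotated transcripts of 29 of the 33 protein-coding members. It was found in 45 of the 15116 protein-coding genes of the table that have a transcript (0.298%), and 16 of those were not members. The 29 stem-loops fell into 6 variants. Below, capitals mark the stem-loop and lower case its flanks of 5 bases, all on the GRCm38 build and read along the strand of the gene.
Hist3h2ba: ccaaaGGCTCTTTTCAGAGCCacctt
Hist3h2a: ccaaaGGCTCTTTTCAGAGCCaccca
Hist1h1c: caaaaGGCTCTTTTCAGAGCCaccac
Hist1h3c: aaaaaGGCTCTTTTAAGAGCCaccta
Hist1h4i: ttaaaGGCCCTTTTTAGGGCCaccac
Hist4h4: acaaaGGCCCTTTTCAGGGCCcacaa
Hist1h4b: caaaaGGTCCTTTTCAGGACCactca
Hist1h4a: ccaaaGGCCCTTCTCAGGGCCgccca
The first form, shown for Hist3h2ba, Hist3h2a and Hist1h1c, was shared by 15 members of the H1, H2A, H2B and H3 classes. The form of Hist1h3c was shared by 5 H2B and H3 members. The 9 H4 members carried 4 forms of their own, none of which was found in a member of another class. These were the form of Hist4h4 in 4 members, those of Hist1h4i and Hist1h4b in 2 members each, and that of Hist1h4a in 1 member. The stem-loops of the members with most counts lie at chr11:58949349-58949364 (Hist3h2ba), chr11:58955172-58955187 (Hist3h2a), chr13:22040966-22040981 (Hist1h4i, minus strand), chr13:23739512-23739527 (Hist1h1c) and chr13:23745047-23745062 (Hist1h3c, minus strand). No full match was found in Hist2h2be, Hist1h2bc, Hist1h1b, Hist1h1a or the pseudogene Hist3h2bb-ps. The annotated transcript of Hist1h1a ends before the last letter of the motif.

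Messages of the histone clusters were sparse in both libraries, and a few genes held nearly all of their counts. The 34 members together had 1913 counts in H2AZcKO and 1756 counts in H2AZfl/fl tissue, which is 0.0216% of the H2AZcKO library and 0.0197% of the H2AZfl/fl library. The 7 members with at least 20 counts over both libraries held 96.5% of the member counts in H2AZcKO and 95.3% in H2AZfl/fl. The other 27 members had 1 to 6 counts each in H2AZcKO and 1 to 10 counts each in H2AZfl/fl. Each class was led by 1 gene: Hist1h1c for H1, Hist3h2a for H2A, Hist3h2ba for H2B, Hist1h3c for H3 and Hist1h4i for H4. Hist1h3c, with 31 counts summed over both libraries, was the lowest of the 7, and Hist1h2be, with 16, the highest of the 27.

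**Figure D1:**
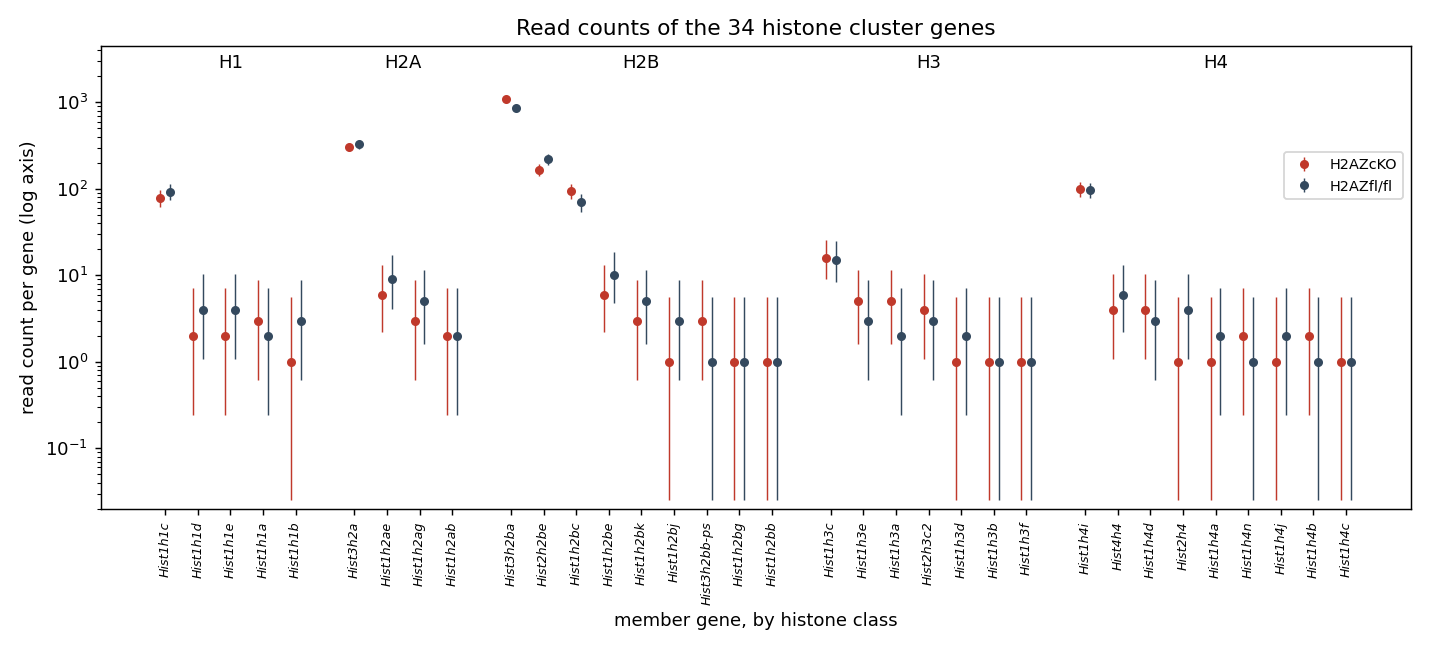
Read counts of the 34 histone cluster members in the H2AZcKO and H2AZfl/fl libraries on a log axis, by histone class, with exact Poisson 95% intervals, 1 library per genotype. Most members sit at 10 counts or fewer in both libraries, and Hist3h2ba stands highest with 1087 counts in H2AZcKO and 854 counts in H2AZfl/fl tissue.

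Hist3h2ba was higher in H2AZcKO tissue and set the direction of the summed counts. The 34 members together gave a ratio of H2AZcKO over H2AZfl/fl of 1.13 (1.06 to 1.20). Without Hist3h2ba, the other 33 had 826 counts in H2AZcKO and 902 counts in H2AZfl/fl tissue, a ratio of 0.947 (0.861 to 1.04). The direction of the family as a whole thus turned on 1 gene. For single members a pseudocount of 1 CPM was added before taking log2, so that changes of low genes appear too small. On this log2(CPM + 1) scale the members ran from -0.37 to 0.43, with 18 above 0, 16 below 0 and a median of 0.00, against a median of 0.00 and 53.1% above 0 over all genes. In raw counts, 12 members had more in H2AZcKO, 16 had fewer and 6 had equal counts.

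No member differed by 1.5-fold or more on that scale, in a table where 1.85% of genes were at least 1.5-fold higher in H2AZcKO and 2.84% at least 1.5-fold lower. Most members were too low in both libraries to reach 1.5-fold with a pseudocount of 1 CPM, so this says little about them. Among the 8 members at 1 CPM or more in the higher library, 0 were 1.5-fold higher and 0 lower. Over all genes at this floor the shares were 1.92% and 3.03%. The counting interval of the ratio lay wholly above 1 for 2 of 34 members, Hist3h2ba and Hist1h2bc, against 9.67% of all genes. It lay wholly below 1 for 1 of 34 members, Hist2h2be, against 8.69% of all genes. All 3 are H2B genes, as are 9 of the 34 members and 4 of the 8 at 1 CPM or more. H2B also held most member counts, and more counts give narrower intervals, so no preference for this class is read from these calls. Of the members, 8 reached 1 CPM in the higher library, and 27 had too few counts for anything but a large difference to be detectable at this depth.

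**Figure D2:**
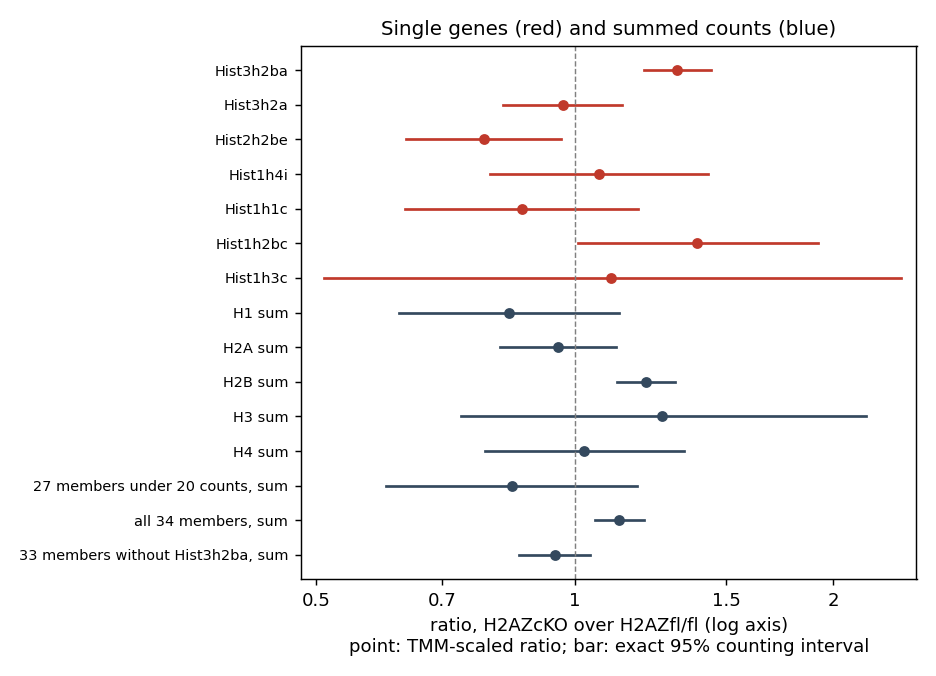
Ratio of counts in H2AZcKO over H2AZfl/fl tissue with its 95% counting interval, on a log axis, for the 7 members with at least 20 summed counts and for summed counts by class and over all members. The intervals of Hist3h2ba, Hist1h2bc, the H2B sum and the sum of all 34 members lie above 1, that of Hist2h2be below 1, and the sum without Hist3h2ba spans 1.

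The linker histone H1 binds the DNA that enters and leaves the nucleosome and compacts the fibre. Hist1h1c had 78 counts in H2AZcKO and 93 counts in H2AZfl/fl tissue, or 8.95 and 10.3 CPM, a ratio of 0.868 (0.634 to 1.19). It made up 90.7% of H1 counts in H2AZcKO and 87.7% in H2AZfl/fl. Hist1h1d and Hist1h1e each had 2 counts in H2AZcKO and 4 in H2AZfl/fl, a log2 ratio of -0.23. These are low values in both libraries, with intervals that include 1. Hist1h1b had 1 count in H2AZcKO and 3 counts in H2AZfl/fl (log2 ratio -0.26), and Hist1h1a had 3 in H2AZcKO and 2 in H2AZfl/fl. Thus 4 of 5 H1 members had fewer counts in H2AZcKO tissue. Their sum was 86 counts in H2AZcKO and 106 in H2AZfl/fl, a ratio of 0.839 (0.624 to 1.13), which the counting error does not separate from 1.

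H2A pairs with H2B at the faces of the nucleosome, and it is the protein whose place H2A.Z takes. Hist3h2a had 306 counts in H2AZcKO and 327 counts in H2AZfl/fl tissue, or 35.1 and 36.3 CPM, a ratio of 0.968 (0.826 to 1.13). It held 96.5% of H2A counts in H2AZcKO and 95.3% in H2AZfl/fl. Its exons overlap Trim17 on the same strand and Gm44313 on the opposite strand, so its counts are uncertain where reads were shared. Hist1h2ae had 6 counts in H2AZcKO and 9 in H2AZfl/fl (log2 ratio -0.24), Hist1h2ag had 3 in H2AZcKO and 5 in H2AZfl/fl (log2 ratio -0.21), and Hist1h2ab had 2 in each. The 3 of them overlap antisense genes. The class summed to 317 counts in H2AZcKO and 343 in H2AZfl/fl, a ratio of 0.956 (0.818 to 1.12). No H2A member was separated from 1 by its counting interval.

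H2B was the class with most counts and the 1 class whose sum was separated from 1 by its counting interval. It had 1362 counts in H2AZcKO and 1164 counts in H2AZfl/fl tissue, a ratio of 1.21 (1.12 to 1.31). Within it, members differed in opposite directions. Hist3h2ba had 1087 counts in H2AZcKO and 854 in H2AZfl/fl, or 125 and 94.7 CPM, a ratio of 1.32 (1.20 to 1.44) and a log2 ratio of 0.39. In the authors' deposited table its log2 fold change is 0.36 with an adjusted p of 3.38e-06, a value that compares these libraries and not the genotypes. Hist2h2be had 166 counts in H2AZcKO and 219 in H2AZfl/fl, or 19.0 and 24.3 CPM, a ratio of 0.784 (0.637 to 0.964) and a log2 ratio of -0.34. Hist2h2be was therefore lower by about as much as Hist3h2ba was higher. The authors' deposited table gives Hist2h2be a log2 fold change of -0.39 with an adjusted p of 0.0682.

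Hist1h2bc, which has a spliced transcript of 2 exons, had 94 counts in H2AZcKO and 70 in H2AZfl/fl tissue, or 10.8 and 7.76 CPM. Its ratio was 1.39 (1.01 to 1.92) and its log2 ratio 0.43. This call rests on the scaling: by total counts the ratio was 1.35 (0.981 to 1.87), and by DESeq2 size factors 1.37 (0.993 to 1.89). The authors' deposited table gives it a log2 fold change of 0.43 with an adjusted p of 0.233. The other 6 H2B members had 1 to 6 counts in H2AZcKO and 1 to 10 in H2AZfl/fl. The highest of them, Hist1h2be, had 6 in H2AZcKO and 10 in H2AZfl/fl, a ratio of 0.621 (0.185 to 1.89) and a log2 ratio of -0.32, and its exons overlap those of Hist1h1e. Without Hist3h2ba the H2B members summed to 275 counts in H2AZcKO and 310 in H2AZfl/fl, a ratio of 0.918 (0.777 to 1.08).

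The make-up of the H2B messages can be read within each library, with no scaling between them. Hist3h2ba made up 79.8% of H2B counts in H2AZcKO (exact binomial interval 77.6 to 81.9) and 73.4% in H2AZfl/fl (70.7 to 75.9). Hist2h2be made up 12.2% in H2AZcKO (10.5 to 14.0) and 18.8% in H2AZfl/fl (16.6 to 21.2). The shares of both genes therefore differed by more than counting error, in opposite directions. Shares of a whole are not independent: a higher share of Hist3h2ba means a lower share of the other members together. These shares and the quotients below restate the same counts as the ratios above and are not separate support. Hist1h2bc made up 6.90% in H2AZcKO (5.61 to 8.38) and 6.01% in H2AZfl/fl (4.72 to 7.54), intervals that overlap. The number of Hist3h2ba counts per Hist2h2be count was 6.55 in H2AZcKO and 3.90 in H2AZfl/fl, a ratio of these quotients of 1.68 (1.34 to 2.11). Per Hist2h2be count there were 0.566 Hist1h2bc counts in H2AZcKO and 0.320 in H2AZfl/fl, a ratio of 1.77 (1.20 to 2.61). The H2B class as a whole held 71.2% of member counts in H2AZcKO (69.1 to 73.2) and 66.3% in H2AZfl/fl (64.0 to 68.5).

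**Figure D3:**
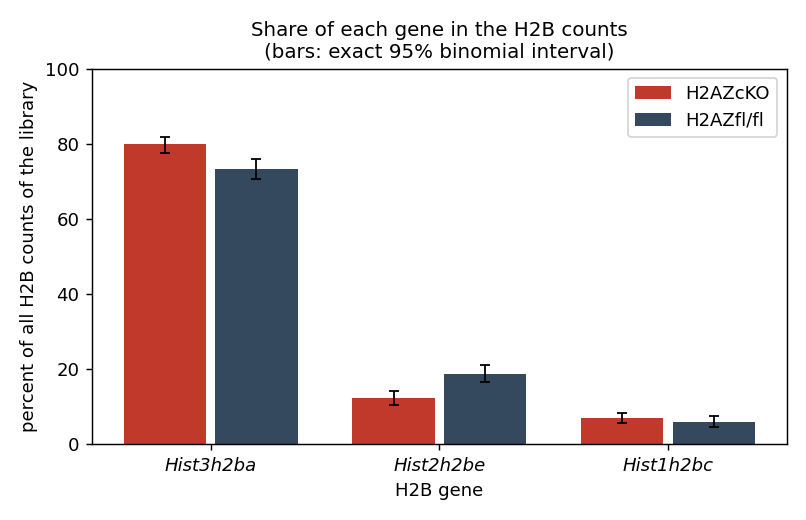
Share of H2B counts, in percent, held by Hist3h2ba, Hist2h2be and Hist1h2bc in the H2AZcKO and H2AZfl/fl libraries, with 95% exact binomial intervals. Hist3h2ba stands at 79.8% in H2AZcKO and 73.4% in H2AZfl/fl, and Hist2h2be at 12.2% in H2AZcKO and 18.8% in H2AZfl/fl.

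H3 and H4 form the tetramer at the centre of the nucleosome. Hist1h3c had 16 counts in H2AZcKO and 15 in H2AZfl/fl tissue, or 1.84 and 1.66 CPM, a ratio of 1.10 (0.511 to 2.40). Hist1h3a had 5 in H2AZcKO and 2 in H2AZfl/fl, a ratio of 2.59 (0.423 to 27.2) and a log2 ratio of 0.37. Such counts cannot separate the genotypes. Hist1h3e had 5 in H2AZcKO and 3 in H2AZfl/fl (log2 ratio 0.24), and Hist2h3c2 had 4 in H2AZcKO and 3 in H2AZfl/fl (log2 ratio 0.13). Hist1h3d had 1 in H2AZcKO and 2 in H2AZfl/fl (log2 ratio -0.13). Hist1h3b and Hist1h3f had 1 count in each library. The H3 sum was 33 counts in H2AZcKO and 27 in H2AZfl/fl, a ratio of 1.26 (0.737 to 2.19).

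Among H4 genes, Hist1h4i had 99 counts in H2AZcKO and 96 in H2AZfl/fl tissue, or 11.4 and 10.6 CPM, a ratio of 1.07 (0.798 to 1.43). The other 8 H4 members had 1 to 4 counts in H2AZcKO and 1 to 6 in H2AZfl/fl, and together 16 in H2AZcKO and 20 in H2AZfl/fl. Hist2h4 had 1 in H2AZcKO and 4 in H2AZfl/fl (log2 ratio -0.37), the lowest log2 ratio of all members but with a counting interval that includes 1. Hist4h4 had 4 in H2AZcKO and 6 in H2AZfl/fl (log2 ratio -0.19), and Hist1h4b and Hist1h4n each had 2 in H2AZcKO and 1 in H2AZfl/fl (log2 ratio 0.15). The H4 sum was 115 counts in H2AZcKO and 116 in H2AZfl/fl. Its ratio was 1.03 (0.786 to 1.34), and 0.997 (0.764 to 1.30) with scaling by total counts, so it has no direction.

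By genomic cluster, the sum was higher in H2AZcKO tissue for Hist3, lower for Hist2 and not separated from 1 for Hist1 and Hist4. The 27 Hist1 members (chromosome 13, 21735064 to 23764358) had 342 counts in each library, a ratio of 1.03 (0.888 to 1.21). The 3 Hist2 members (chromosome 3, 96221119 to 96263311) had 171 in H2AZcKO and 226 in H2AZfl/fl, a ratio of 0.783 (0.638 to 0.959), and nearly all were Hist2h2be. The 3 Hist3 members (chromosome 11, 58948920 to 58956830) had 1396 in H2AZcKO and 1182 in H2AZfl/fl, a ratio of 1.22 (1.13 to 1.32). Positions are those of the deposited annotation, and they match GRCm38. The single Hist4 member, Hist4h4 on chromosome 6, gave 0.690 (0.143 to 2.91).

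The Hist3 cluster holds 3 genes in under 8 kb with very different counts. Hist3h2ba and the pseudogene Hist3h2bb-ps face each other across 4514 bases, and Hist3h2bb-ps lies 172 bases from Hist3h2a, with the start sites back to back. Hist3h2bb-ps had 3 counts in H2AZcKO and 1 in H2AZfl/fl tissue, although 22.1% of the 50-base stretches of Hist3h2ba also occur in another gene, most often Hist3h2bb-ps. The difference in Hist3h2ba was not shared by Hist3h2a. Counts of Hist3h2ba per count of Hist3h2a were 3.55 in H2AZcKO and 2.61 in H2AZfl/fl, a ratio of 1.36 (1.13 to 1.63). This comparison needs no scaling between libraries.

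Their promoters are shown because these neighbours hold most member counts, and the counting interval of the ratio lay above 1 for Hist3h2ba while it included 1 for Hist3h2a. Each is 300 bases long, 250 before and 50 after the RefSeq start (GRCm38.p6), on the plus strand. Capitals mark matches on either strand to CCAAT, the box bound by NF-Y, to TATAAA, a form of the TATA box, and to ATTTGCAT, the octamer bound by POU2F1 and known from H2B promoters.
Hist3h2ba: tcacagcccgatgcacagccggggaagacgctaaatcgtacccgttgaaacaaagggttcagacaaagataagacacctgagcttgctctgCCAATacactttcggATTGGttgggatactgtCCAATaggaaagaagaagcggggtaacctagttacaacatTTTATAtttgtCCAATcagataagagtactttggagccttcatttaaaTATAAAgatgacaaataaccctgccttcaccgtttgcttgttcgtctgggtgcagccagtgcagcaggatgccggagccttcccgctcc
Hist3h2a: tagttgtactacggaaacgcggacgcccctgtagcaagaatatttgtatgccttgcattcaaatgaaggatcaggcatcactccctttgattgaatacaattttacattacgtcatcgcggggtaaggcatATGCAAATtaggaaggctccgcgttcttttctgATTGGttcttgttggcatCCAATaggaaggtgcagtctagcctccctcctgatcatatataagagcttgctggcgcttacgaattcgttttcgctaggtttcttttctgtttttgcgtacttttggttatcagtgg
The Hist3h2ba promoter (chr11:58948661-58948960) held 4 CCAAT matches, 2 TATAAA matches and 0 octamers. The Hist3h2a promoter (chr11:58954435-58954734) held 2 CCAAT matches, 0 TATAAA matches and 1 octamer. RefSeq gave 29 promoters for 28 of the 34 members. Of these, 24 held CCAAT (82.8%, against 37.4% of 32851 promoters), 17 held TATAAA (58.6%, against 13.6%) and 7 held the octamer (24.1%, against 1.74%). None of the 3 motifs contains another, and a match is a description, not a bound site.

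Per base of exon, the order of the members was led even more clearly by Hist3h2ba. Its level was 203 CPM per kb in H2AZcKO and 154 CPM per kb in H2AZfl/fl tissue. Hist3h2a stood at 16.4 CPM per kb in H2AZcKO and 16.9 in H2AZfl/fl, and Hist1h4i at 15.6 in H2AZcKO and 14.6 in H2AZfl/fl. Their counting intervals overlap in both libraries, as do those of Hist1h4i and Hist1h2bc, whose level was 14.7 in H2AZcKO and 10.5 in H2AZfl/fl. With all annotated exons counted instead of those inside the deposited gene position, Hist1h2bc stood at 9.33 CPM per kb in H2AZcKO and 6.72 in H2AZfl/fl. Hist2h2be followed at 7.27 in H2AZcKO and 9.27 in H2AZfl/fl, Hist1h1c at 5.74 in H2AZcKO and 6.61 in H2AZfl/fl, and Hist1h3c at 3.75 in H2AZcKO and 3.40 in H2AZfl/fl.

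Most of the 7 members with at least 20 counts have a poly(A) signal near the end of the annotated transcript. The poly(A) signal letters AATAAA or ATTAAA occurred in the last 60 annotated bases of 11 of the 33 protein-coding members (33.3%), against 89.4% of protein-coding genes of the table. They occurred in 5 of the 7 members with at least 20 counts, namely Hist3h2ba, Hist3h2a, Hist2h2be, Hist1h4i and Hist1h1c, and in 6 of the other 27. The 11 members with these letters held 91.7% of member counts in H2AZcKO and 92.4% in H2AZfl/fl. Within the deposited gene position, exons ran past the stem-loop by 169 bases in Hist3h2ba, 330 in Hist1h4i, 840 in Hist1h1c and 1643 in Hist3h2a, and by 34 in Hist1h3c.

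Per kilobase of exon, the median level was not higher in the members with more annotated bases past the stem-loop, though most had few counts. Within the deposited gene position, which is shorter than the M21 gene for some members, 17 members had under 100 bases past it and 12 had 100 or more. The median level was 0.485 CPM per kb in H2AZcKO and 0.469 in H2AZfl/fl for the 17, and 0.331 in H2AZcKO and 0.362 in H2AZfl/fl for the 12. The exon length includes the bases past the stem-loop, so this scale can lower members with a long 3′ end. In counts summed over both libraries the order was the other way, with a median of 4 for the 17 and 9 for the 12. Of the 12, 4 had at least 20 counts over both libraries, and of the 17, 1 did. The 17 members had 53 counts in H2AZcKO and 60 in H2AZfl/fl in all, a ratio of 0.914 (0.619 to 1.34). The 12 members had 1593 in H2AZcKO and 1401 in H2AZfl/fl, a ratio of 1.18 (1.09 to 1.27), most of it Hist3h2ba. By the whole M21 transcripts, 7 of the 17 also run 100 bases or more past the stem-loop. The 10 that do not had 36 counts in each library, and the 19 that do had 1610 in H2AZcKO and 1425 in H2AZfl/fl. Members with a long annotated 3′ end had low and high counts. Hist4h4, with 2445 bases past the stem-loop, had 4 in H2AZcKO and 6 in H2AZfl/fl, and Hist2h4, with 1257, had 1 in H2AZcKO and 4 in H2AZfl/fl. Hist3h2a, with 1643, had 306 in H2AZcKO and 327 in H2AZfl/fl. The part of the annotated 3′ end in these levels was not tested. The 5 members with no stem-loop letters had 267 in H2AZcKO and 295 in H2AZfl/fl, nearly all from Hist2h2be and Hist1h2bc. Histone genes also resemble one another, and 9 members shared at least 50% of their 50-base stretches with another gene. The median share was 28.9% in the 7 higher members and 40.4% in the others. The labels do not say how reads that fit several genes were counted, and their part in these levels was not tested.

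**Figure D4:**
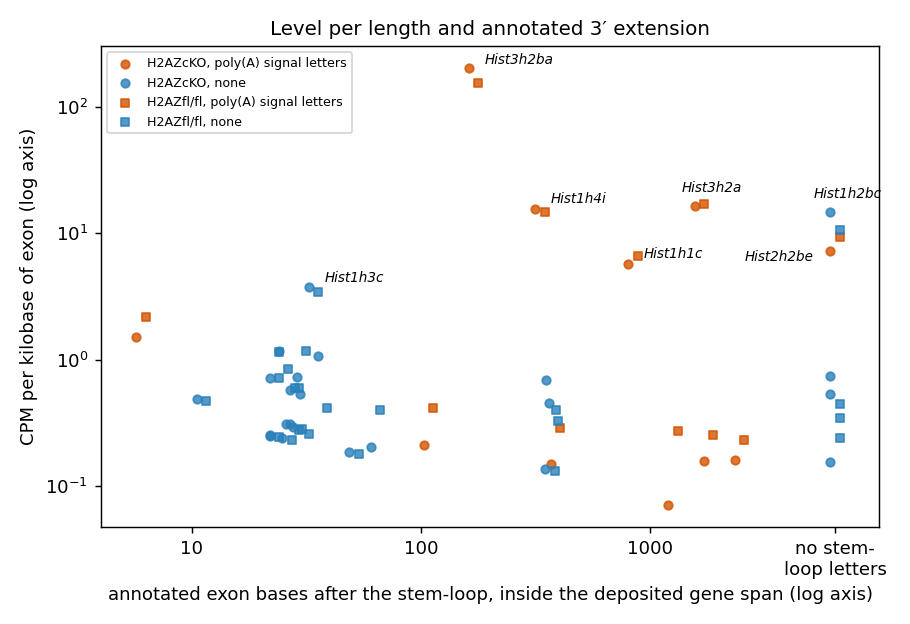
Level in CPM per kb of exon on a log axis against the annotated bases past the stem-loop within the deposited gene position, for each member in the H2AZcKO and H2AZfl/fl libraries, with the members that lack stem-loop letters at the right edge and colour by poly(A) signal letters. Members under 100 bases reach at most 3.75 CPM per kb in H2AZcKO and 3.40 in H2AZfl/fl, while Hist3h2ba, with 169 bases, stands at 203 in H2AZcKO and 154 in H2AZfl/fl.

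Histone genes outside the clusters, whose messages are mostly polyadenylated and for most of them not tied to replication, were mostly higher in H2AZcKO tissue. Of 13 such genes, 11 reached 1 CPM in the higher library, where 51.0% of all genes had a log2 ratio above 0 and the median was 0.00603. Of the 11, 10 were above 0. Their median was 0.23, and 0.18 with scaling by total counts. Their counting intervals lay above 1 for 9 and below 1 for 1, against 12.6% and 11.2% of genes at this floor. The 1 gene below was H2afz itself, 191 CPM in H2AZcKO and 289 CPM in H2AZfl/fl.
H1fx, a linker histone variant, had 291 CPM in H2AZcKO and 203 CPM in H2AZfl/fl, a ratio of 1.43 (1.35 to 1.52), and its exons overlap Gm5577 and Gm47286. H2afv, the other H2A.Z gene, had 316 CPM in H2AZcKO and 252 CPM in H2AZfl/fl, a ratio of 1.25 (1.19 to 1.33). H3f3a, which encodes the replacement H3 variant, had 281 CPM in H2AZcKO and 231 CPM in H2AZfl/fl, a ratio of 1.22 (1.15 to 1.29), with antisense genes at its locus.

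Genes that act on histone messages were counted by list. Those named with values are the genes of each list with the largest log2 ratios in either direction, with some additions. The additions are Npat, Slbp, H2afz, Nfyb, E2f1, Xrn1, Dis3l2 and further Lsm genes of the decay list. Among the 16 genes for transcription of the clusters, the log2 ratio was above 0 in 9 and below in 7 (median 0.04). Npat, the coactivator found at the histone loci, had 296 counts in H2AZcKO and 310 in H2AZfl/fl, a ratio of 0.988 (0.840 to 1.16). Hinfp, the factor that binds H4 promoters, had 64 counts in H2AZcKO and 115 in H2AZfl/fl, a ratio of 0.576 (0.417 to 0.788), and overlaps Gm48604 on its strand. It was the 1 gene of the list at least 1.5-fold lower, against 3.03% of genes at 1 CPM, and none was 1.5-fold higher, against 1.92%. The general activator Sp1 stood at 0.819 (0.735 to 0.912) and the octamer factor Pou2f1 at 0.842 (0.722 to 0.980). Nfyc, a subunit of the CCAAT-binding factor, stood at 1.18 (1.06 to 1.31). Nfyb at 1.16 (1.04 to 1.29) and E2f1 at 1.17 (1.03 to 1.32) were also above 1. In this list of 16 the counting interval lay above 1 for 3 and below 1 for 3, against 12.6% and 11.2% of genes at 1 CPM.

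Of the 25 genes for 3′ end processing, 16 were above 0 and 9 below. Their median log2 ratio was 0.04, and -0.00129 with scaling by total counts, so the list as a whole has no direction. Slbp, which encodes the stem-loop binding protein, had 847 counts in H2AZcKO and 689 in H2AZfl/fl, or 97.2 and 76.4 CPM, a ratio of 1.27 (1.15 to 1.41). It was the highest ratio among the genes of this list at 5 CPM or more. Cdk9, the elongation kinase, stood at 1.15 (1.05 to 1.26), while Lsm10, a protein of the U7 particle, at 1.18 (0.924 to 1.51) and Mblac1, a nuclease described for histone messages in human cells, at 0.831 (0.576 to 1.19) were not separated from 1. Of 18 genes listed for histone message decay, 16 were matched by symbol, all at 1 CPM or more in the higher library. Among these 16 the log2 ratio was above 0 in 12 and below in 4 (median 0.07). The counting interval lay above 1 for 4 of the 16 and below 1 for 3, against 12.6% and 11.2% of genes at 1 CPM. Smg1, the kinase that acts on the decay helicase UPF1, had a ratio of 0.767 (0.701 to 0.838). Xrn1 at 0.863 (0.756 to 0.985) and Dis3l2 at 0.873 (0.767 to 0.993) were also below 1. Of the LSM ring that binds the end of the message, Lsm3 stood at 1.25 (1.11 to 1.41), Lsm1 at 1.23 (1.05 to 1.43) and Lsm7 at 1.23 (1.01 to 1.49). Lsm2 was also above 1, at 1.13 (1.01 to 1.28). The intervals included 1 for Lsm4 at 1.03 (0.936 to 1.14), Lsm5 at 1.01 (0.822 to 1.24), Lsm6 at 1.09 (0.976 to 1.22) and Lsm8 at 1.13 (0.99996 to 1.27).

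**Figure D5:**
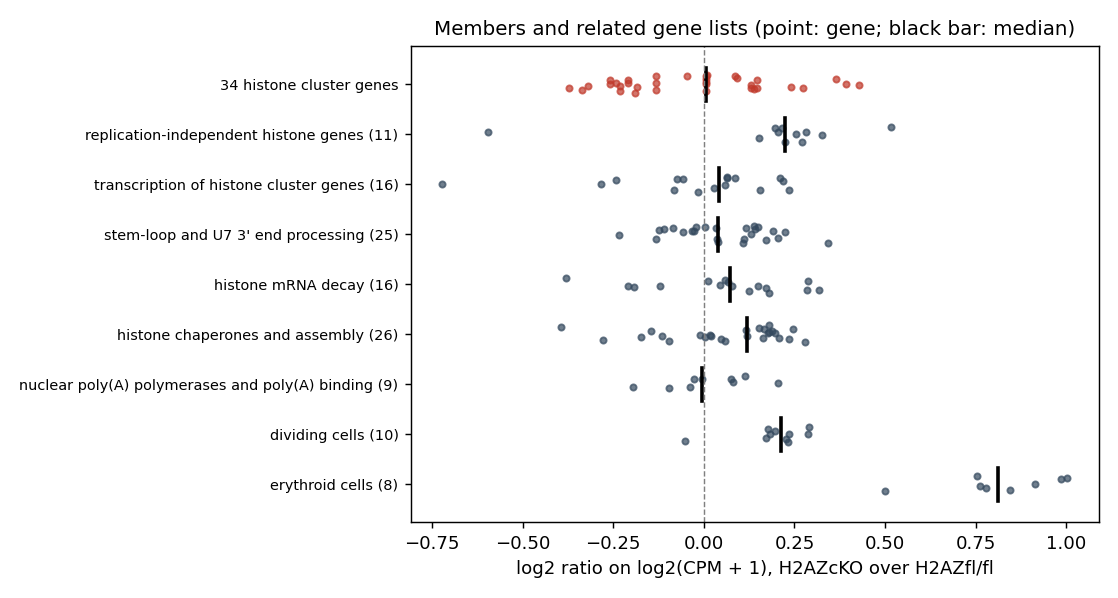
Log2 ratio of H2AZcKO over H2AZfl/fl on the log2(CPM + 1) scale for the 34 members (top row, no floor) and for genes at 1 CPM or more in lists of related genes and of markers of dividing and erythroid cells, with black bars at the medians. The replication-independent histones have a median of 0.23 and the dividing-cell markers 0.21, and the erythroid markers lie highest with a median of 0.81.

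The markers of other cells differed between the libraries too. Of 10 genes of dividing cells, mostly replication factors that act when histone messages are made, 9 were above 0 with intervals above 1, against 12.6% of genes at 1 CPM with such intervals. Their median log2 ratio was 0.21, and they summed to 2732 CPM in H2AZcKO and 2413 CPM in H2AZfl/fl. Mki67, a marker of cycling cells, was the exception at 0.964 (0.922 to 1.01). The 8 erythroid genes at this floor were all above 0 and summed to 690 CPM in H2AZcKO and 364 CPM in H2AZfl/fl, and 7 were at least 1.5-fold higher, against 1.92% of genes at 1 CPM. Macrophage genes were above 0 in 6 of 7 and summed to 35.3 CPM in H2AZcKO and 24.1 CPM in H2AZfl/fl. The part of these differences in the histone values was not tested.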

How the data were processed

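RNA of 1 H2AZcKO and 1 H2AZfl/fl sample was measured, and the members and gene lists were chosen with earlier results of these data known. The submitters' processing notes name Bowtie2 2.2.3, TopHat2 2.0.12, HTSeq 0.6.0 and the build mm9, with no role or order, while the deposited positions match GRCm38. The deposited table holds whole read counts per gene, CPM by the authors, their log2 fold change and ratio (fold), and their p-values. The smallest summed count is 2 and no row names a total. The column headed WT in the file headers was taken as H2AZfl/fl. Of the 19202 identifiers, 19112 matched a symbol in GENCODE M21 and 90 did not. Analysis used R 4.3.3 with edgeR 4.0.16 for TMM factors and Python 3.11.15 with scipy 1.17.1. Counts were divided by total counts times the TMM factors 0.986 for H2AZcKO and 1.01 for H2AZfl/fl, and log2 ratios used a pseudocount of 1 CPM. Ratios carry exact binomial (Clopper-Pearson) 95% intervals. The labels name no molecular identifiers, so reads may be copies of 1 molecule and these intervals cover counting error only. On independent Poisson counts simulated for 19202 genes, 96.3% of intervals held the true ratio. Exact intervals reach this by design on such counts. The simulation held no variation between embryos or libraries and no copied reads, so it does not check the intervals against these. Full values are given for members with 20 or more summed counts and for the 4 with the largest log2 ratio, up or down, in each class. For related genes they are given for the 4 largest per list at 5 CPM or more. Slbp, Npat, H2afz, Nfyb, E2f1, Xrn1, Dis3l2 and further Lsm genes of the decay list were added. Levels per length used the exons inside the deposited positions, which equal M21 for 21 of 34 members. Sequences came from GENCODE M21 transcripts and RefSeq promoters. Alternatives were total counts, DESeq2 1.42.0 size factors, the deposited CPM, other pseudocounts and floors, and sums without 1 member.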

Additional observations from a re-analysis of the deposited data

How the results depend on the processing

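Of 129 alternative values, 122 stayed within the counting interval of the reported value and 4 moved. The other 3 were called values that crossed to the other side of 1, with intervals that included 1. For a median the interval is that of its middle genes, and for a count of members the limit is 1.5 times. The 122 are no measure of stability. Each scaling multiplies all ratios by 1 factor, the deposited CPM nearly repeat total counts, and some exclusions removed no member. Hist1h2bc is among the 122 with each other scaling, although its interval then included 1. Of the 122, 5 lay on the other side of no difference without having been separated from it: H4 at 0.997 with total counts and with the deposited CPM and 0.828 without Hist1h4i, the 3′ processing median at -0.00129 with total counts, and the member median at -0.12 over members with 10 or more summed counts. The 3 that crossed 1 left out the member with most counts, Hist3h2ba. Without it the ratio of H2AZcKO over H2AZfl/fl was 0.947 (0.861 to 1.04) for all members and 0.918 (0.777 to 1.08) for H2B. For the Hist3 cluster it was 0.975 (0.832 to 1.14). The called difference was lost in each, and no opposite difference was called. H2A without Hist3h2a gave 0.711, from 11 counts in H2AZcKO against 16 in H2AZfl/fl. Hist4 has 1 member and gives no value without it. With a pseudocount of 0.1 CPM, 5 members were at least 1.5-fold higher and 6 at least 1.5-fold lower, against 0 and 0 with 1 CPM. The median of the replication-independent histones was 0.18 with total counts. Scaling moved the median log2 ratio of all genes at 1 CPM from 0.00603 with TMM to -0.0323 with total counts and -0.0159 with DESeq2 size factors. The sum over all members then gave 1.10 and 1.11, 1.17 without members that overlap another gene, and 1.13 without the 9 that share at least 50% of their 50-base stretches, an alternative chosen after seeing the data. Depth limits the 27 members under 20 summed counts. With 1 column per genotype, leaving out a replicate was not possible. No paired analysis was possible because each genotype has 1 column and no test was made.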

Other observations

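Chaperones carry newly made histones to DNA. Of 26 such genes, 19 had a log2 ratio above 0 and 7 below (median 0.12), and the counting interval lay above 1 for 11, against 12.6% of genes at 1 CPM, and below 1 for 4, against 11.2%. Hat1, which acetylates new H4, stood at 1.22 (1.10 to 1.35) and Chaf1b, a subunit of the replication-coupled assembly factor, at 1.19 (1.06 to 1.33). Hjurp, which loads the centromeric H3 variant, had 1626 counts in H2AZcKO and 2213 in H2AZfl/fl tissue, a ratio of 0.760 (0.713 to 0.811). Ubn2, a partner of the replication-independent chaperone HIRA, stood at 0.824 (0.746 to 0.909).

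Of 9 genes for nuclear polyadenylation, 4 had a log2 ratio above 0 and 5 below (median -0.00463). Papola, a poly(A) polymerase, stood at 0.936 (0.882 to 0.992), Papolg at 0.870 (0.747 to 1.01), Pcf11, a termination factor, at 1.16 (1.02 to 1.31) and Pabpn1, a nuclear poly(A) binding protein, at 1.08 (1.004 to 1.17).

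Among members, 3 pairs of neighbours lie back to back within 300 bases. In the pair Hist1h2ag and Hist1h2bj, 269 bases apart, the genes had 3 and 1 counts in H2AZcKO and 5 and 3 in H2AZfl/fl. In the pair Hist1h2ae and Hist1h2bg, 286 bases apart, they had 6 and 1 counts in H2AZcKO and 9 and 1 in H2AZfl/fl. The rule on symbols left out 3 rows that the deposited annotation describes as histone cluster genes, with 2 to 3 counts in H2AZcKO and 1 to 3 in H2AZfl/fl tissue.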
